A study of Mus musculus with 14 samples.

Results

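The 38 genes described here are immediate-early genes and other genes grouped with the early response to tissue handling. They were chosen by name, with earlier results of these data known. They were found by symbol among the 42687 genes counted in the retinal pigment epithelium (RPE) of mice. All 38 were present in the count table. The RPE is the pigmented cell layer behind the photoreceptors, and Clic4, the gene removed in the KO mice, encodes a chloride intracellular channel protein. All 14 mice were males on the C57BL/6J background at 3 months of age, and each mouse gave 1 poly(A) library from the RPE cells of both eyes. The KO mice carried Best1-Cre+/- and Clic4f/f, the WT mice were wild type, the Ctrl mice carried Clic4f/f alone and the CreCtrl mice carried Best1-Cre+/- alone. The mice formed 3 sets that shared no library, of 3 WT and 3 KO mice, of 2 Ctrl and 2 KO mice, and of 2 CreCtrl and 2 KO mice. Each control genotype was present in 1 set only, so effects of control genotype and of set cannot be told apart. Best1-Cre acts from the Best1 promoter, which is used by the RPE, so other cells of a KO eye were not targeted. Transcripts of choroidal and scleral cells that came along with the RPE were counted in every library.

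Immediate-early genes are switched on by signals that reach the nucleus through existing proteins, mainly the MAP kinases acting on serum response factor and the kinases acting on CREB, so that no new protein has to be made first. Many encode transcription factors, and others encode phosphatases and mRNA decay factors that shut the same signals off. Enzymatic dissociation, warming and mechanical handling are well known to induce them in many tissues. The RPE of these mice was collected from eyecups that were incubated with hyaluronidase and then with trypsin at body temperature before the cells were detached.

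Libraries held 9828293 to 32384166 counts, and Clic4 ranged from 9.78 to 33.9 CPM in the 7 KO libraries and from 62.1 to 230 CPM in the 7 control libraries. CPM here are counts scaled to a common library size with the TMM factors of all 14 libraries. At the floor of 3 counts a library read 0.104 to 0.258 CPM, which covers counting error only. Of 10 RPE markers none was at 0 in any group. Their summed level was 14772 to 22218 CPM in WT, 44939 to 55644 CPM in Ctrl and CreCtrl and 69019 to 79405 CPM in KO libraries. Most of that sum came from Ttr, Rgr and the visual cycle genes, while Best1 itself stood at 1.2 to 5.9 CPM in all libraries.

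The sequence before the start of transcription is where the regulators of these genes bind, and 30 of the 38 members have a promoter in the RefSeq table used (GRCm38.p6). The 250 bases before each start were searched on both strands for the CArG box of serum response factor, the full CRE (TGACGTCA) of CREB and ATF factors, the AP-1 site (TGANTCA) and the TATA box (TATAAA). The CArG box was found in Dusp5 and Zfp36, which is 6.67% of the members against 1.47% of 32817 promoters. The full CRE was found in Dusp1 and Btg2, which is 6.67% against 1.55%. Zfp36l1 alone held the AP-1 site, 3.33% against 6.75%. The letters TATAAA were found in Fos, Nr4a2, Zfp36l1, Gadd45b and Gadd45g, 16.7% against 12.4%. In Nr4a2 they lay only on the strand opposite to the gene, 164 to 159 bases before the start. In the others they lay on the gene's own strand, within 46 to 22 bases before the start. A match is a description of the letters in this window, and a member without one may carry the element elsewhere. The stretches below belong to 6 of the 9 members whose windows hold these motifs, with the motifs in capitals, each 5′ to 3′ on the strand of its gene. Gadd45g, Zfp36l1 and Btg2 belong to the 6 members that the rule for printing placed first (with Ier5, Ier3 and Jund), and Fos, Dusp1 and Dusp5 were added after the motifs had been seen. The last 50 bases before the start are left out for Dusp1 and Dusp5, and the stretch of Zfp36 is not shown, because GENCODE M21 places an untranslated exon there. Nr4a2 and Gadd45b are not shown either.
Fos, chr12:85473640-85473889, plus strand, TATA box 33 to 28 bases before the start: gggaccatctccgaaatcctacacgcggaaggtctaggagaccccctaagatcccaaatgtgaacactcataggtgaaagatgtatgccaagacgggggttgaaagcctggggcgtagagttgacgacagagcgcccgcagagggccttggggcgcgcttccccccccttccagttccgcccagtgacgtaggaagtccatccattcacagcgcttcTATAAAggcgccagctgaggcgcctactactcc
Gadd45g, chr13:51846425-51846674, plus strand, TATA box 27 to 22 bases before the start: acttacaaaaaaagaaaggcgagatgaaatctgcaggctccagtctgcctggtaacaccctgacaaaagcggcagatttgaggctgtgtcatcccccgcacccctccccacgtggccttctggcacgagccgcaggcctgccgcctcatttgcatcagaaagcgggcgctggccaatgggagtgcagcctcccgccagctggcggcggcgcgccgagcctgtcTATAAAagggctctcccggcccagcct
Zfp36l1, chr12:80113014-80113263, minus strand, AP-1 site 129 to 123 and TATA box 29 to 24 bases before the start: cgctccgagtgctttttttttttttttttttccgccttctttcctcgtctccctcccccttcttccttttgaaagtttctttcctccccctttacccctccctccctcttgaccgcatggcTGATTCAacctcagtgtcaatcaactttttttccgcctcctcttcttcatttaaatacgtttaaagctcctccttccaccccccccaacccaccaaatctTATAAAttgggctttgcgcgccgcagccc
Btg2, chr1:134079156-134079405, minus strand, full CRE 166 to 159 bases before the start: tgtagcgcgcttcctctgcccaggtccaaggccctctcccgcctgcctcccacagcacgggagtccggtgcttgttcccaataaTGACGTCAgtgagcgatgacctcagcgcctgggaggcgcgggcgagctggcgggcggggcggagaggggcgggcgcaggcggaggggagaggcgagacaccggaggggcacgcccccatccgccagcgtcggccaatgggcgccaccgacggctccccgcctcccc
Dusp1, chr17:26508523-26508722, minus strand, full CRE 143 to 136 bases before the start: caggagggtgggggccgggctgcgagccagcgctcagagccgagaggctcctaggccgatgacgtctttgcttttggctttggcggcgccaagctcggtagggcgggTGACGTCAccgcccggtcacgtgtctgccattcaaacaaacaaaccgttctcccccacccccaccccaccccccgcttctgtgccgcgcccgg
Dusp5, chr19:53528895-53529094, plus strand, 2 adjoining CArG boxes 82 to 73 and 72 to 63 bases before the start: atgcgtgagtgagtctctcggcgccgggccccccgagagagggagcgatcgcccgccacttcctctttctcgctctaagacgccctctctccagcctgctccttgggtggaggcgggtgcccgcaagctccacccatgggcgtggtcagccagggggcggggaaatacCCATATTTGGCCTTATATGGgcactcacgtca

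In each set the members were lower in KO than in control mice, with Dusp6 as the main exception. KO vs. WT called 35 of the 38 members by edgeR's quasi-likelihood test, meaning an adjusted p under 0.05 and a fold change above 1.5, and 34 of these were lower in KO. In that comparison 17.6% of the 15428 genes tested were called lower and 14.1% higher. The median log2 fold change of the members was -2.90, against -0.08 over all genes. The KO libraries of that set were all lower than the WT libraries for 35 members, as for 24.5% of all genes, and all higher for Dusp6 alone, as for 28.7% of all genes. Fosl1, Nr4a3 and Arc were not called.

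KO vs. CreCtrl called 35 of the 37 members tested, all lower, against 12.2% of 15963 genes called lower and 3.46% higher. Their median log2 fold change was -2.84, against -0.02 over all genes. Both KO libraries lay below both CreCtrl libraries for 36 members and above them for Dusp6, where 34.9% of all genes lay below and 37.3% above. Dusp6 and Ptgs2 were tested and not called, and Fosl1 had too few counts to be tested.

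In KO vs. Ctrl the median log2 fold change of the members was of similar size, -2.62 against 0.01 over all genes, yet edgeR called 0 of 38 members there and 0% of the 15287 genes. The lowest adjusted p of a member was 0.106, from edgeR. At an unadjusted p under 0.05, 33 members were lower and 0 higher, where 11.4% of all genes were lower. Both KO libraries lay below both Ctrl libraries for 36 members, against 22.7% of all genes, and above them for 0, against 18.3%. Nr4a3 and Dusp6 overlapped. DESeq2 called 19 members lower in these same libraries, against 6.69% of all genes.

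The same 33 members were called lower against WT and against CreCtrl mice, and for each of them every KO library also lay below every control library of its set in all 3 sets. Their falls ranged from 2.99-fold to 16.3-fold against WT, from 2.32-fold to 21.4-fold against Ctrl and from 1.52-fold to 15.1-fold against CreCtrl. Over 2 on the log2 scale was reached by 30, 27 and 26 of the 33, in the same order. When all 7 KO libraries were fitted against all 7 controls with set as a covariate, 35 members were called lower and Dusp6 higher, where 16.8% and 11% of 14925 genes were called in those directions. For 32 members all 7 KO libraries lay below all 7 controls regardless of set, where 5.32% of genes did.

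**Figure D1:**
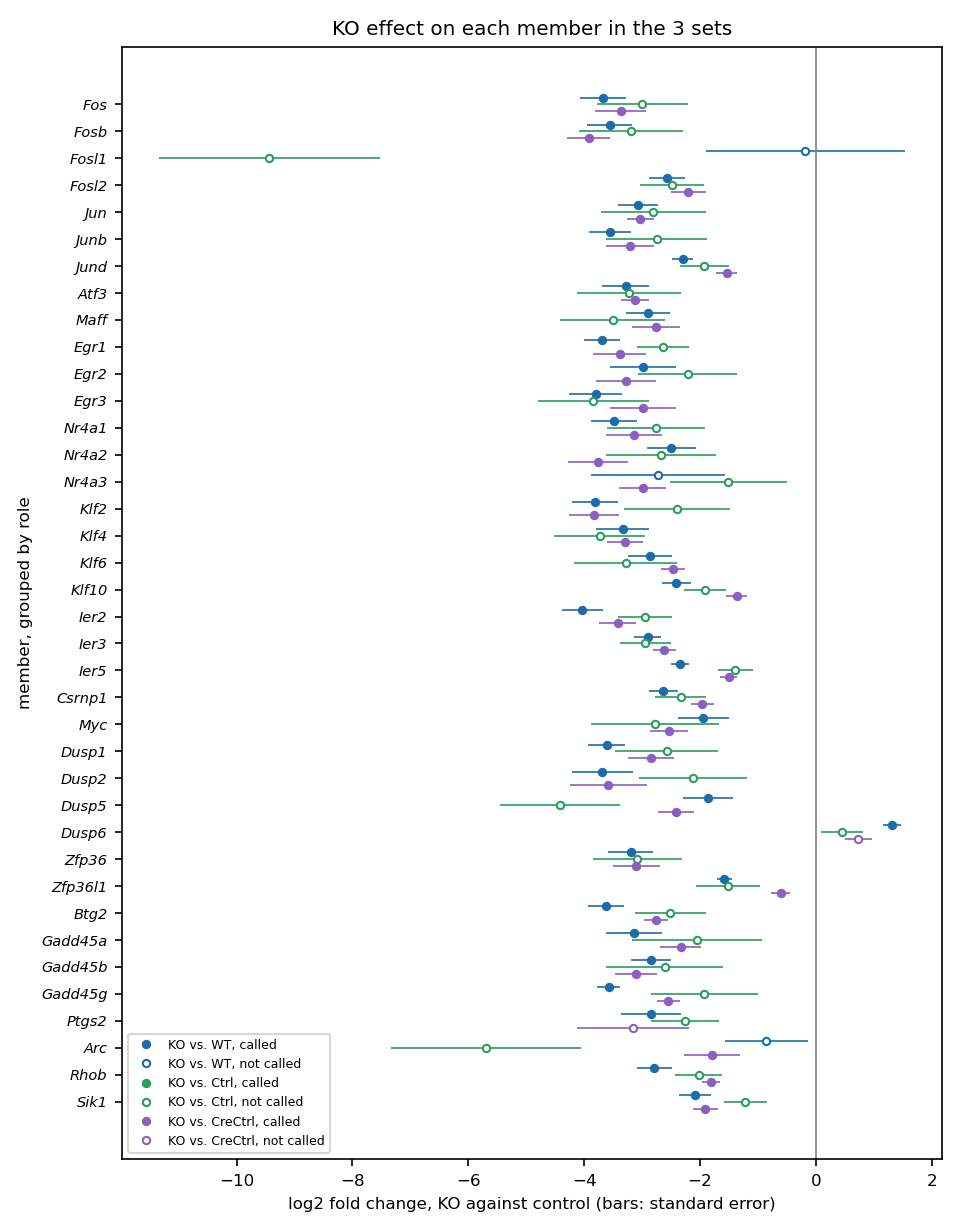
Log2 fold change of each member in KO against the controls of its set, with its standard error as a bar. Filled points were called by edgeR (35, 0 and 35 members in the WT, Ctrl and CreCtrl sets) and open points were not. Fosl1 is absent from the CreCtrl set, where it was not tested, and Dusp6 is the one member right of 0 in all 3 sets.

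The AP-1 subunits, which pair as Fos and Jun proteins on the AP-1 site, had 4 of the 6 highest levels per kilobase of exon in the controls and fell in KO, apart from Fosl1. Fos, the prototype of the group (chromosome 12 of GRCm38, 85473890 to 85477273), stood at 2485, 2165 and 2110.0 CPM in the WT mice and at 335, 119.9 and 131 CPM in the KO mice of their set. In the Ctrl set Fos was at 1197 and 1245 CPM in controls against 47.5 and 258 in KO, and in the CreCtrl set at 781 and 826 CPM against 44.4 and 114. No KO library reached the lowest control of any set. Its log2 fold changes were -3.67 (SE 0.40, edgeR adjusted p = 0.000234) in KO vs. WT, -3.00 (SE 0.79, not called) in KO vs. Ctrl and -3.37 (SE 0.44, adjusted p = 0.00682) in KO vs. CreCtrl.

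Fosb, a Fos relative first known from serum-stimulated cells, measured 1602, 1308 and 1251 CPM in WT against 219, 87.0 and 82.3 in KO. Fosb gave 714 and 1189 CPM in Ctrl against 27.1 and 181 in KO, and 648 and 575 in CreCtrl against 26.7 and 55.4. As a ratio, the KO mice of the Ctrl set were further apart than the Ctrl mice. Fosl2, which encodes Fra-2, measured 204, 279 and 284 CPM in WT against 73.3, 39.6 and 30.3 in KO. It was at 103 and 273 CPM in Ctrl against 23.8 and 43.6 and at 109 and 95.7 in CreCtrl against 15.8 and 29.6. Both genes were lower in every KO library than in any control of the set, with log2 fold changes in KO vs. WT of -3.56 (SE 0.39) and -2.57 (SE 0.32).

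Jun, the main partner of Fos and a substrate of the JNK kinases, stood at 1801, 1243 and 1418 CPM in WT against 305, 173 and 110.2 in KO. Jun counts gave 841 and 1270.0 CPM in Ctrl against 35.9 and 266, and 552 and 563 in CreCtrl against 57.8 and 81.5. Its fall was close to the median of the members in the WT set (-3.07, SE 0.35) and in the CreCtrl set (-3.03, SE 0.23). Junb, a Jun relative that weakens Jun's own activity on many targets, was at 2508, 1923 and 1896 CPM in WT against 317, 118 and 158 in KO. Junb was at 882 and 1148 CPM in Ctrl against 37.8 and 264 and at 570.3 and 642 CPM in CreCtrl against 38.8 and 94.6. The KO mouse with the least was again replicate 1 in the Ctrl and CreCtrl sets. Jund, the Jun gene with the steadiest expression in resting cells, was at 909.5, 796 and 859 CPM in WT against 243, 183 and 150.3 in KO, at 477 and 689 in Ctrl against 99.1 and 208 and at 309 and 296 in CreCtrl against 120.3 and 93.6. Jund had the smaller log2 fold changes of the 3, -2.30 (SE 0.19) in KO vs. WT and -1.54 (SE 0.18) in KO vs. CreCtrl, a difference between genes that was not tested. Jun, Junb and Jund share 232, 173 and 877 exon bases with Junos, Prdx2 and Gm11175 on the opposite strand, and whether the counting used the strand is not given in the sources used here.

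Fosl1, which encodes Fra-1, was near the floor except in the Ctrl mice. It gave 0, 1.72 and 1.64 CPM in WT against 1.36, 1.96 and 0 in KO, and 1.03 and 0.127 in CreCtrl against 0 and 0.139. The Ctrl mice had 7.70 and 130.4 CPM, which are 117 and 3510 counts, against 0 and 3 counts in the KO mice of that set. The ratio of the pooled Ctrl to the pooled KO rate was 922, with a 95% exact interval of 315 to 4471 for counting error only, and replicate 2 supplied nearly all of the Ctrl counts. Fosl1 (chromosome 19 of GRCm38, 5447547 to 5455946) shares 1163 of its 2033 exon bases with Ccdc85b on the opposite strand, and Ccdc85b was at 40.7 and 25.9 CPM in Ctrl replicates 1 and 2. When KO effects were compared between sets, Fosl1 was the only member called, in the WT set against the Ctrl set, where 5.15% of 17662 genes were called on adjusted p alone. In the WT set against the CreCtrl set and the Ctrl set against the CreCtrl set edgeR called 0 members, as against 1.49% and 0% of all genes. At an unadjusted p under 0.05 the members differing between sets numbered 5, 2 and 1, where 21.4%, 14.9% and 8.75% of all genes did.

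Atf3 and Maff encode leucine zipper factors that can join AP-1 proteins in dimers. Atf3, a stress-induced factor of the ATF and CREB family, was at 605, 465 and 491 CPM in WT against 81.4, 73.3 and 23.8 in KO. It stood at 251 and 397 CPM in Ctrl against 8.74 and 60.6 and at 197 and 164 CPM in CreCtrl against 17.1 and 25.2, with a log2 fold change of -3.12 (SE 0.24, edgeR adjusted p = 0.00247) there. Maff, a small Maf protein that lacks a transactivation domain, was at 89.6, 88.1 and 102 CPM in WT against 21.2, 14.1 and 6.22 in KO, at 38.6 and 89.0 in Ctrl against 1.5 and 9.67 and at 32.3 and 26.9 in CreCtrl against 2.52 and 6.33. Groups did not overlap for either gene in any set.

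The EGR factors, zinc finger proteins induced through serum response factor, were all lower in KO. Egr1 (chromosome 18 of GRCm38, 34859823 to 34864984) had the highest level per kilobase of the 3, with 2579, 2446 and 2577 CPM in WT and 321, 131 and 195 CPM in KO. Egr1 stood at 1134 and 2013 CPM in Ctrl against 182 and 323 in KO, and at 775 and 1016 CPM in CreCtrl against 48.7 and 126. Its log2 fold changes were -3.69 (SE 0.32, edgeR adjusted p = 7.55e-05), -2.64 (SE 0.44, not called) and -3.38 (SE 0.46, adjusted p = 0.00751) in KO vs. WT, vs. Ctrl and vs. CreCtrl. Egr2, known for myelinating Schwann cells and lymphocytes, was at 67.2, 48.5 and 40.6 CPM in WT against 10.7, 9.43 and 1.60 in KO, at 16.7 and 28.8 in Ctrl against 1.30 and 8.47 and at 21.7 and 26.5 in CreCtrl against 1.12 and 3.86. Egr3 was at 22.9, 30.2 and 27.3 CPM in WT against 2.93, 0.839 and 2.54 in KO, at 6.71 and 15.3 in Ctrl against 0.196 and 1.31 and at 14.8 and 10.5 in CreCtrl against 0.702 and 2.503. Neither overlapped in any set, and the lowest library for Egr3, KO replicate 1 of the Ctrl set, held 3 counts, which is the floor.

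The NR4A group consists of orphan nuclear receptors whose activity is set by their amount rather than by a ligand. Nr4a1 (Nur77) stood at 1025, 1079 and 1410.1 CPM in WT against 196, 86.0 and 66.3 in KO. It was at 392 and 553 CPM in Ctrl against 18.5 and 120.5 and at 332 and 359 CPM in CreCtrl against 20.1 and 59.7, and fell in KO vs. WT with a log2 fold change of -3.48 (SE 0.40, edgeR adjusted p = 0.000302). Nr4a2 (Nurr1), which dopaminergic neurons need, was at 65.1, 68.9 and 108 CPM in WT against 27.6, 10.9 and 9.09 in KO, at 38.4 and 51.7 in Ctrl against 1.30 and 12.8 and at 45.8 and 26.6 in CreCtrl against 1.32 and 4.03. Groups of a set did not overlap for either gene. Nr4a3 (Nor1) was at 20.6, 30.7 and 40.6 CPM in WT against 13.7, 1.75 and 0 in KO, at 11.1 and 25.05 in Ctrl against 1.17 and 11.52 and at 12.7 and 12.1 in CreCtrl against 1.03 and 2.12. Nr4a3 was called in KO vs. CreCtrl (-2.99, SE 0.40) but not in KO vs. WT (-2.72, SE 1.15, edgeR adjusted p = 0.104), where KO replicate 1 read 13.7 CPM and replicate 3 had 0 counts. Without that KO replicate 1 it was called in the WT set.

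**Figure D2:**
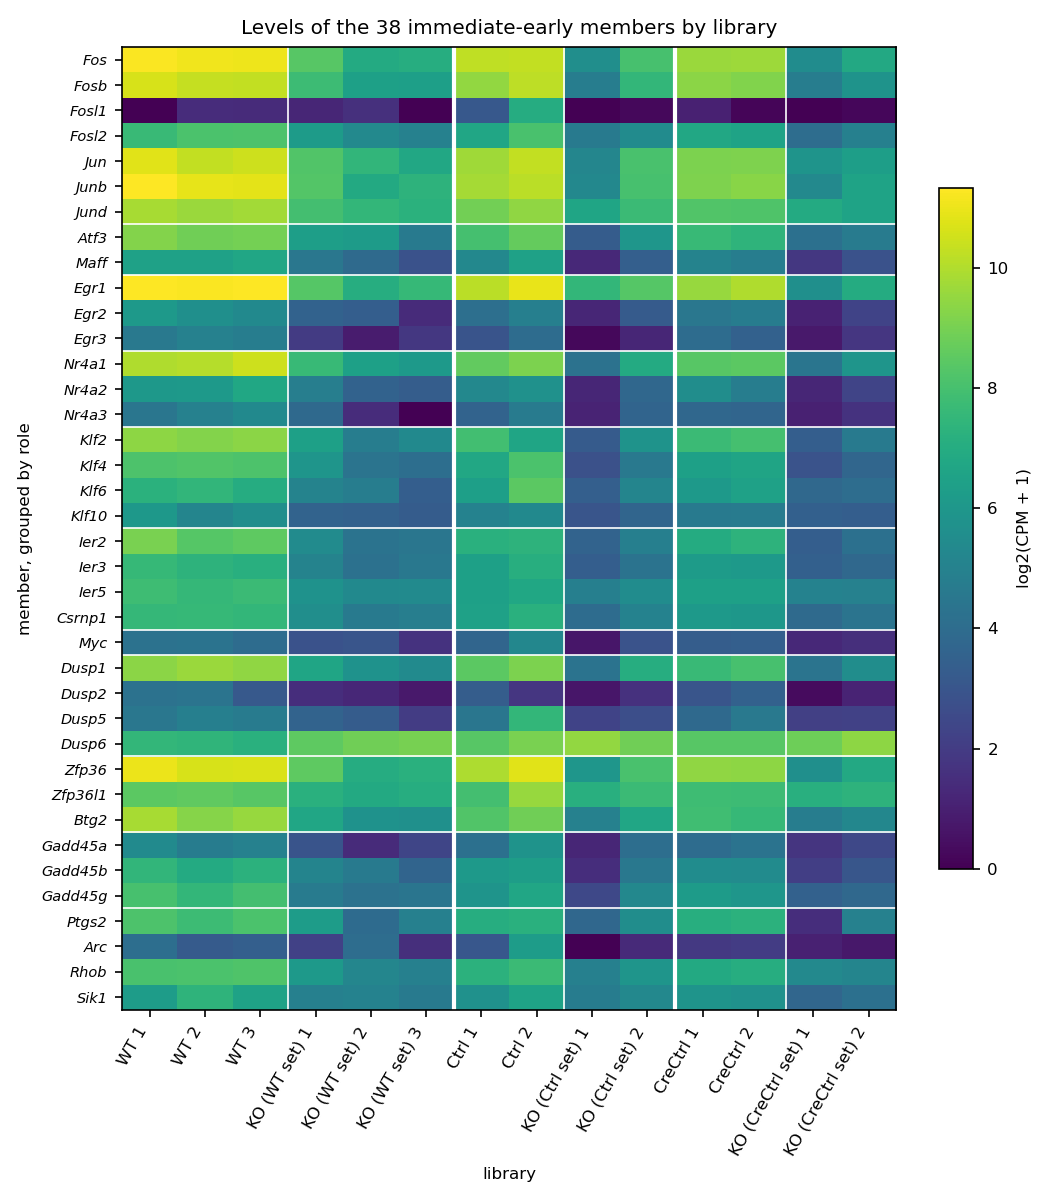
Levels of the 38 members (rows, grouped by role) in the 14 libraries (columns) as log2(CPM + 1), with thick lines between sets and thin lines between control and KO mice. Control columns are brighter than KO columns for nearly every row, Dusp6 runs the other way, and Ctrl 2 differs from Ctrl 1 in Fosl1, Dusp5, Klf6 and Arc.

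The KLF factors bind GC-rich promoter elements, and all 4 members fell. Klf2, which endothelial cells induce under laminar flow, was at 688, 602 and 650.2 CPM in WT against 85.5, 26.6 and 40.4 in KO. Klf2 was at 241 and 98.8 CPM in Ctrl against 8.61 and 56.0 and at 214 and 257 CPM in CreCtrl against 9.54 and 24.0. It was, with Dusp2, higher in Ctrl replicate 1 than in replicate 2, and its log2 fold change was -3.81 (SE 0.40) in KO vs. WT and -3.83 (SE 0.43) in KO vs. CreCtrl. Klf4, known as a pluripotency and barrier factor, was at 282, 308 and 283 CPM in WT against 59.3, 19.8 and 16.2 in KO, at 111.7 and 278 in Ctrl against 5.93 and 23.3 and at 86.2 and 97.6 in CreCtrl against 6.57 and 12.5. Klf6 was at 151, 173 and 129 CPM in WT against 32.1, 27.2 and 9.56 in KO, at 84.1 and 352 in Ctrl against 9.85 and 34.8 and at 66.0 and 89.3 in CreCtrl against 13.2 and 15.5. Klf6 in Ctrl replicate 2 exceeded every other library. Klf10, induced by TGF-beta, was at 64.3, 34.9 and 46.8 CPM in WT against 11.02, 10.5 and 8.82 in KO, at 31.5 and 40.2 in Ctrl against 6.98 and 12.1 and at 24.3 and 25.1 in CreCtrl against 10.1 and 9.49. Klf10 fell least of the 4, with a log2 fold change of -1.37 (SE 0.19, edgeR adjusted p = 0.00785) in KO vs. CreCtrl.

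The IER proteins and Csrnp1 are early nuclear regulators of less well-known biochemistry. Ier2 had the largest fall of all members in KO vs. WT, from 531, 327 and 363 CPM to 42.7, 18.7 and 20.99 CPM, a log2 fold change of -4.03 (SE 0.36, edgeR adjusted p = 8.48e-05). It stood at 145 and 161 CPM in Ctrl against 11.3 and 28.3 in KO and at 124 and 157 CPM in CreCtrl against 9.42 and 17.3. Ier2 in KO was below the controls by more than the range within either group in every set. Ier3, which acts on cell survival, was at 190.1, 159 and 140.0 CPM in WT against 32.1, 17.9 and 22.2 in KO, at 85.5 and 136 in Ctrl against 9.52 and 19.2 and at 74.2 and 67.4 in CreCtrl against 10.2 and 13.4. Its falls were alike in size, -2.90 (SE 0.23), -2.95 (SE 0.44) and -2.61 (SE 0.19) on the log2 scale, and Ier3 had the lowest adjusted p of the members over all 7 KO and 7 control libraries (edgeR adjusted p = 2.33e-06). Ier5, a regulator of the heat shock factor HSF1, was at 227, 189 and 211 CPM in WT against 53.5, 41.0 and 41.8 in KO, at 86.5 and 106 in Ctrl against 28.3 and 44.9 and at 86.5 and 86.6 in CreCtrl against 31.4 and 31.0. Csrnp1 was at 188, 190.1 and 178 CPM in WT against 48.0, 23.6 and 27.4 in KO, at 87.5 and 146 in Ctrl against 15.3 and 31.1 and at 66.1 and 63.5 in CreCtrl against 14.3 and 19.6. Neither overlapped between KO and control in any set.

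Myc, the growth-promoting factor that many mitogens induce early, ranked 33 of 38 per kilobase in the controls. It was at 18.5, 18.8 and 15.3 CPM in WT against 6.19, 6.85 and 2.14 in KO, at 11.8 and 36.8 in Ctrl against 0.587 and 6.44 and at 9.19 and 9.71 in CreCtrl against 1.45 and 1.88. Its log2 fold change was -1.94 (SE 0.44, edgeR adjusted p = 0.009) in KO vs. WT and -2.53 (SE 0.33) in KO vs. CreCtrl.

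The dual-specificity phosphatases remove phosphate from MAP kinases and so report on, and limit, the signal that induces the group. Dusp1, which acts on p38 and JNK in the nucleus, was at 658, 789 and 699 CPM in WT against 99.0, 53.1 and 41.7 in KO. Dusp1 was at 353 and 552 CPM in Ctrl against 18.7 and 133 and at 205 and 261 CPM in CreCtrl against 19.8 and 46.4. It fell with a log2 fold change of -3.61 (SE 0.31, edgeR adjusted p = 7.93e-05) in KO vs. WT and -2.84 (SE 0.40, adjusted p = 0.00804) in KO vs. CreCtrl. Dusp2, best known from leukocytes, was at 18.1, 19.6 and 8.08 CPM in WT against 1.77, 1.40 and 0.735 in KO, at 9.02 and 2.45 in Ctrl against 0.587 and 2.03 and at 6.84 and 10.5 in CreCtrl against 0.248 and 1.18. Dusp5, a nuclear phosphatase of ERK, was at 21.4, 28.5 and 25.1 CPM in WT against 11.02, 8.88 and 3.07 in KO, at 21.1 and 182 in Ctrl against 3.85 and 5.61 and at 13.8 and 22.7 in CreCtrl against 3.39 and 3.58. Both were lower in every KO library than in the controls of its set, and the wide gap for Dusp5 in the Ctrl set came from replicate 2, which was 8.62 times replicate 1.

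Dusp6, the cytoplasmic phosphatase specific for ERK (chromosome 10 of GRCm38, 99263231 to 99267489), was the member that rose. It was at 178, 169.9 and 145 CPM in WT and at 370.1, 464 and 515 CPM in the KO mice of that set. All KO libraries of the WT set lay above all WT libraries, with a log2 fold change of 1.31 (SE 0.16, edgeR adjusted p = 0.000368). In the Ctrl set Dusp6 was at 330.1 and 537 CPM in controls and 722 and 463 in KO, which overlapped (0.45, SE 0.36). In the CreCtrl set it was at 336 and 329.8 CPM in controls and 456 and 676 in KO, which did not overlap but was not called (0.74, SE 0.23, edgeR adjusted p = 0.069). It was called there with DESeq2, when genes with as little as 1 count were kept, and without KO replicate 1. The effects of the sets were not called different from each other. Over the 3 sets Dusp6 rose with a log2 fold change of 0.93 (SE 0.19, edgeR adjusted p = 0.00206), where 11% of genes were called higher. With the mean log2 level of 10 fibroblast markers added to that fit, its effect was -0.32 (SE 0.47, not called). The 10 RPE markers had median log2 fold changes of 1.43 in KO vs. WT and 1.01 over the 3 sets. Dusp6 was the only member whose WT libraries all lay below every other library, as they also did for the summed RPE markers.

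**Figure D3:**
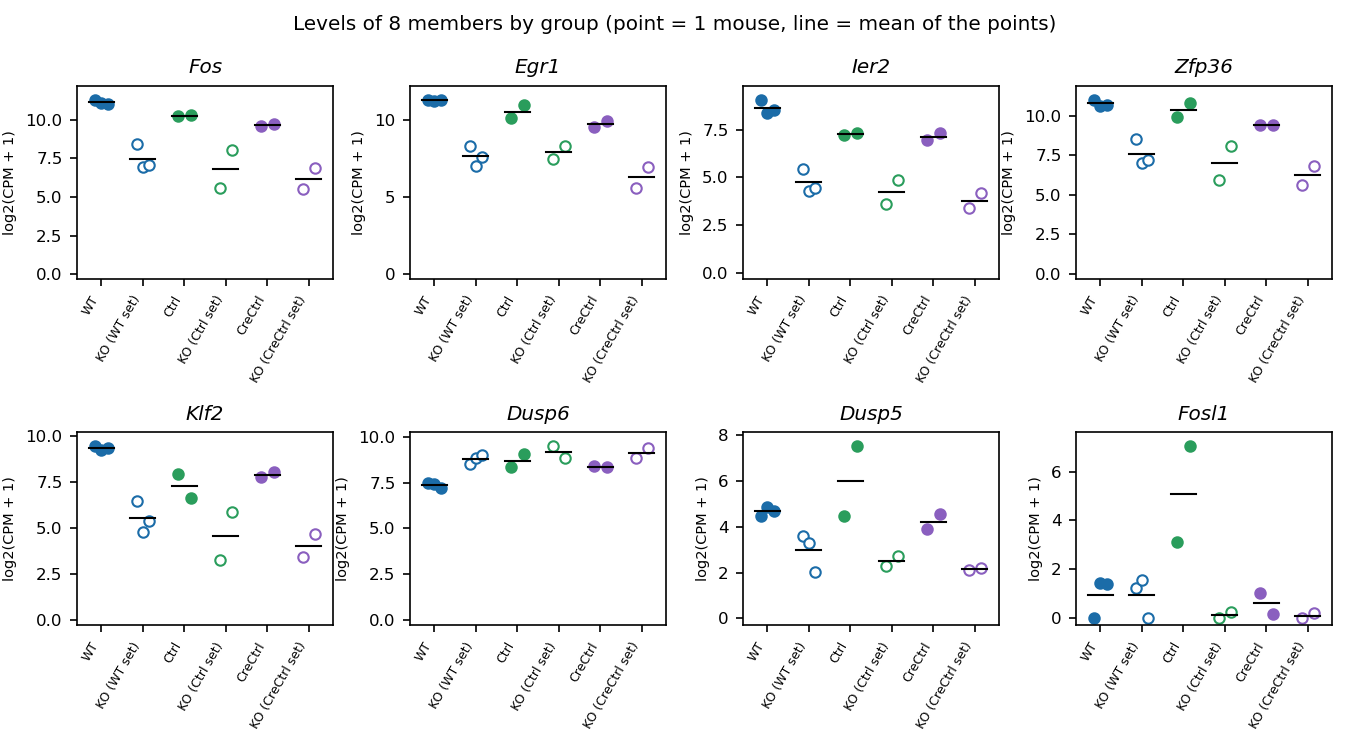
Levels of 8 members in the 6 groups as log2(CPM + 1), 1 point for each mouse and a line at the mean of the points. KO points lie below the control points of their set for Fos, Egr1, Ier2, Zfp36, Klf2 and Dusp5, lie above or overlap them for Dusp6, and Fosl1 is high in the Ctrl mice alone.

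Zfp36, Zfp36l1 and Btg2 act after transcription, on the decay of short-lived mRNAs. Zfp36 (tristetraprolin), which binds AU-rich elements of early transcripts, was at 2056, 1606 and 1652 CPM in WT against 362, 129.6 and 147 in KO. Zfp36 was at 994 and 1831 CPM in Ctrl against 61.2 and 272 and at 689 and 685 CPM in CreCtrl against 48.7 and 114.6. Its log2 fold changes, -3.20, -3.08 and -3.10 in KO vs. WT, vs. Ctrl and vs. CreCtrl (SE 0.39, 0.76 and 0.40), were close to each other. Btg2, which brings a deadenylase to mRNAs and slows proliferation, was at 918, 617 and 777 CPM in WT against 103, 54.2 and 49.9 in KO, at 303 and 470.2 in Ctrl against 30.9 and 104 and at 232 and 194 in CreCtrl against 27.3 and 36.9. Zfp36l1 was at 353, 374 and 337 CPM in WT against 143, 116 and 133 in KO, at 248 and 765 in Ctrl against 142 and 211 and at 227 and 220.2 in CreCtrl against 142 and 158. Zfp36l1 fell by less than its relatives, with a log2 fold change of -1.58 (SE 0.13, edgeR adjusted p = 6.31e-05) in KO vs. WT and -0.61 (SE 0.16, adjusted p = 0.0472) in KO vs. CreCtrl. The latter call was lost with DESeq2, with the replicate number as a block, with all 14 libraries fitted as 6 groups, when genes with as little as 1 count were kept, and without CreCtrl replicate 2 or either KO mouse of that set. Zfp36 and Zfp36l1 share 125 and 1672 exon bases with Gm44710 and Gm26669 on the opposite strand.

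The GADD45 proteins are small stress sensors that bind MAP kinase kinases and cell cycle proteins, and all 3 fell. Gadd45a, a p53 target, was at 42.5, 26.2 and 30.2 CPM in WT against 6.599, 1.61 and 4.14 in KO, at 17.0 and 55.2 in Ctrl against 1.30 and 16.1 and at 15.1 and 18.7 in CreCtrl against 2.40 and 4.41. Gadd45b was at 174, 119 and 156 CPM in WT against 33.7, 24.2 and 11.50 in KO, at 68.3 and 79.4 in Ctrl against 1.83 and 22.3 and at 45.2 and 43.6 in CreCtrl against 3.30 and 7.16. Gadd45g was at 259.9, 183 and 249 CPM in WT against 25.6, 18.1 and 20.3 in KO, at 56.7 and 104 in Ctrl against 4.500 and 37.8 and at 73.3 and 61.0 in CreCtrl against 10.5 and 13.1. In the Ctrl set the KO mice were far apart for all 3, replicate 2 being 8.41 to 12.4 times replicate 1, yet still below both Ctrl mice. Gadd45g had the lowest adjusted p of the members in KO vs. WT (-3.57, SE 0.20, edgeR adjusted p = 2.24e-05), while in KO vs. Ctrl its SE was 0.92.

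Of the remaining effectors, Rhob and Sik1 fell in both sets where calls were made. Rhob, a small GTPase of endosomes, was at 269, 275 and 297 CPM in WT against 69.1, 35.9 and 29.5 in KO, at 153 and 211 in Ctrl against 29.7 and 59.7 and at 118 and 135 in CreCtrl against 39.7 and 34.7. Sik1, a kinase induced by cAMP that restrains CREB coactivators, was at 75.7, 163 and 90.4 CPM in WT against 29.7, 31.6 and 24.2 in KO, at 52.7 and 95.2 in Ctrl against 26.0 and 37.7 and at 57.6 and 51.8 in CreCtrl against 12.4 and 17.4. Sik1 moved less than Rhob in KO vs. WT, with log2 fold changes of -2.09 (SE 0.28) and -2.79 (SE 0.30). In KO vs. CreCtrl the order was reversed, at -1.91 for Sik1 and -1.80 for Rhob, and the difference between the genes was not tested. Ptgs2 (cyclooxygenase 2), the inducible enzyme of prostaglandin synthesis, was at 290.4, 216 and 277 CPM in WT against 75.4, 14.7 and 30.0 in KO, at 134 and 146 in Ctrl against 12.9 and 45.5 and at 138 and 153 in CreCtrl against 1.78 and 30.9. Ptgs2 fell in KO vs. WT (-2.84, SE 0.51, edgeR adjusted p = 0.0029), and was not called in KO vs. CreCtrl (-3.16, SE 0.97, adjusted p = 0.0637). It was called there without CreCtrl replicate 1 or either KO mouse, with the replicate number as a block and when genes with as little as 1 count were kept. Arc, known from synapses, was at 16.3, 8.52 and 9.66 CPM in WT against 3.61, 15.7 and 1.87 in KO, at 7.44 and 75.1 in Ctrl against 0 and 1.55 and at 2.65 and 3.05 in CreCtrl against 1.03 and 0.660. Arc overlapped in the WT set, where KO replicate 2 was second only to WT replicate 1, and its call in KO vs. CreCtrl (edgeR adjusted p = 0.0483) was lost when any 1 of the 4 libraries was left out and with all 14 libraries fitted as 6 groups. Without that KO replicate 2 Arc was called in the WT set.

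Exon length sets how levels of different genes compare, so CPM were also divided by the exon length of each member in kilobases. In the controls the highest medians per kilobase were 529 for Fos, 499 for Junb, 463 for Zfp36, 449 for Egr1, 413 for Jund and 390 for Jun. The ranges over the 7 controls overlapped throughout this order, and differences between neighbours in it were not tested within libraries. In the KO libraries the order was headed by Dusp6 at 148.1, with Jund at 90.1, Junb at 51.2, Fos at 50.99 and Zfp36l1 at 47.6 CPM per kilobase. Dusp6 ranked 16 in the controls, and the ranges of Fos, 332 to 1056 in the controls and 18.9 to 143 in KO, did not overlap.

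Together the members took up 0.768% to 2.55% of all counts in a control library and 0.118% to 0.355% in a KO library. The summed level of the 38 members was 21655, 18569 and 19382 CPM in the WT mice and 3873, 2210 and 2168 CPM in the KO mice of that set. It was 9742 and 15576 CPM in Ctrl against 1638 and 3438 CPM in KO, and 7311 and 7681 CPM in CreCtrl against 1272 and 1988 CPM in KO. WT mice were the highest of the controls. The KO mice of the Ctrl set overlapped with those of both other sets, while those of the WT set all lay above those of the CreCtrl set.

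The 7 KO mice shared a genotype but not a level. KO replicate 1 of the WT set was the highest of the 7 for 24 members and KO replicate 2 of the Ctrl set for 10. KO replicate 1 of the Ctrl set was the lowest for 18 members and KO replicate 1 of the CreCtrl set for 12. Summed fibroblast markers stood at 679 CPM in KO replicate 1 of the WT set and 404 CPM in KO replicate 2 of the Ctrl set. They stood at 218 and 224 CPM in KO replicate 1 of the Ctrl and CreCtrl sets. The remaining KO libraries held 262 to 369 CPM, and a link with the members was not tested. When the KO groups were compared between sets, edgeR called 0 members in any of the 3 contrasts. A call here needed an adjusted p under 0.05 and a fold change above 1.5. Genes called were 3.67%, 0.226% and 1.36% of 17662 for WT set against Ctrl set, WT set against CreCtrl set and Ctrl set against CreCtrl set. At an unadjusted p under 0.05 the members numbered 2, 21 and 3 in that order, where 17.9%, 12.4% and 7.05% of all genes did. The median difference was 0.38, 1.21 and 0.82 on the log2 scale, the first-named set being higher each time.

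The 2 Ctrl mice were unalike for most members, and the 2 CreCtrl mice were closer. Ctrl replicate 2 exceeded replicate 1 for 36 of 38 members, with a median ratio of 1.65 and a range of 0.272 to 16.9. The highest ratios belonged to Fosl1, Arc, Dusp5 (8.62) and Klf6 (4.18), and the ratios below 1 to Klf2 (0.410) and Dusp2 (0.272). Between the CreCtrl mice 20 members were higher in replicate 2, with a median ratio of 1.01. The summed markers of fibroblasts (0.570), rods (0.188), erythrocytes (0.576), myeloid cells (0.646) and endothelial cells (0.857) had ratios of replicate 2 to replicate 1 below 1. Those of the RPE (1.03), Schwann cells (1.12), pericytes and smooth muscle (1.75) and mast cells (14.1) had ratios above 1. Without Ctrl replicate 2 the fit over the 3 sets again called 36 members.

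**Figure D4:**
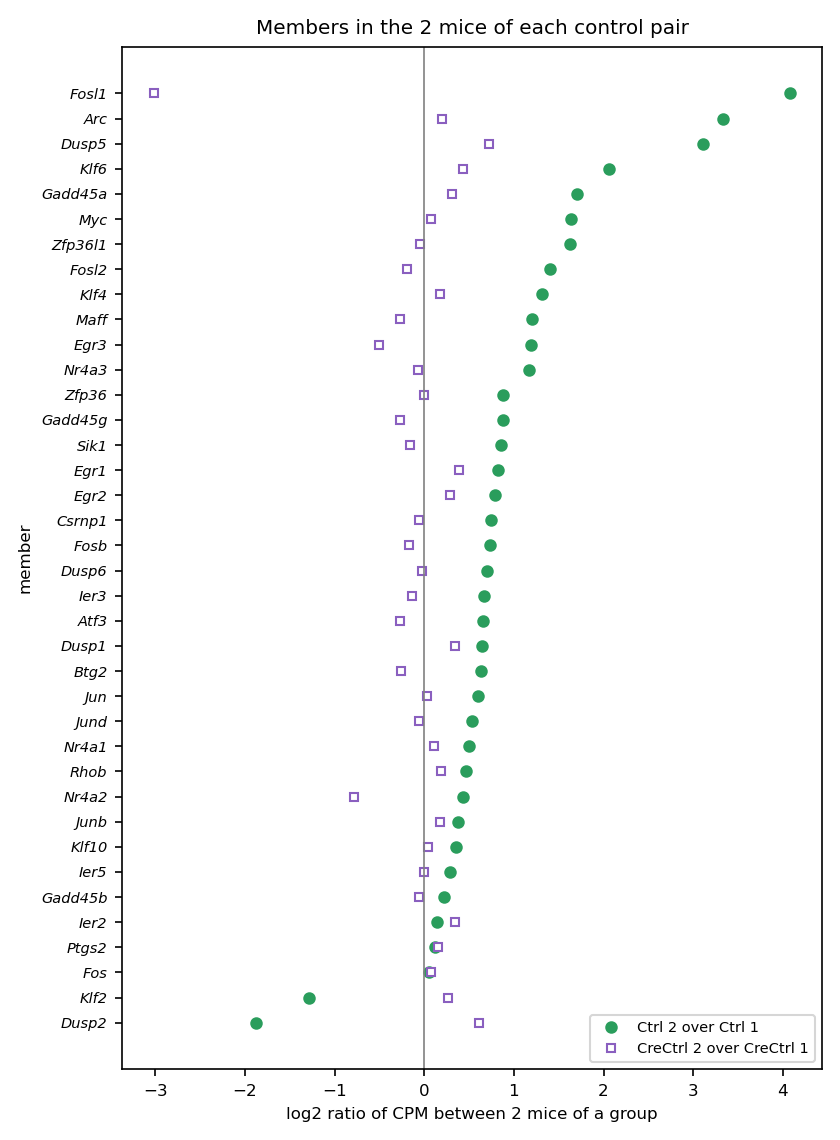
Log2 ratio of CPM between the mice of a control pair for each member, replicate 2 over replicate 1, with a line at 0. The Ctrl pair (filled circles) lies right of 0 for 36 of 38 members, and the CreCtrl pair (open squares) scatters about 0, with 20 above and Fosl1 far to the left.

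Transcripts of stromal cells moved with the members. Of 10 fibroblast markers (among them Dcn, Col1a1, Col1a2 and Pdgfra), the numbers called lower against WT, Ctrl and CreCtrl mice were 10, 0 and 9, with median log2 fold changes of -4.19, -2.90 and -3.37. Their summed level was 7040 to 7342 CPM in WT against 262 to 679 in KO, 1175 to 2063 in Ctrl against 218 to 404 in KO, and 1308 to 2631 in CreCtrl against 224 to 369 in KO. None of the 10 was at 0 in any group. In RNA of whole cell pellets, fewer cells of a type and less RNA per cell cannot be told apart.

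The falls of the members and of the fibroblast markers were set side by side as summed levels, with no test of the difference. The mean summed level in controls was 7.22 times that in KO for the members and 17.3 times for the fibroblast markers among WT and KO mice, 4.99 and 5.21 times with Ctrl, and 4.60 and 6.64 times with CreCtrl mice as the controls. Member CPM for each fibroblast CPM were 3.08, 2.54 and 2.64 in WT against 5.71, 8.44 and 6.85 in KO, 4.72 and 13.3 in Ctrl against 7.52 and 8.51, and 5.59 and 2.92 in CreCtrl against 5.67 and 5.39. The ratio of the sums was higher in every KO library than in any WT library, and overlapped in the other sets. Taken for each member, the ratio was higher in all KO than in all control libraries for 31, 3 and 8 members with WT, Ctrl and CreCtrl mice as the controls. The same held for 84.4%, 84.2% and 87.7% of all genes, since the divisor itself was lower in KO. It was lower in all KO libraries for 0, 3 and 7 members, against 1.15%, 2.95% and 3.02% of all genes, and it overlapped for the other 7, 32 and 23.

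When the mean log2 level of the fibroblast markers was added to the fit over the 3 sets, 0 of 38 members were called, as were 0% of all genes. The lowest adjusted p of a member was 0.652 (edgeR), and at an unadjusted p under 0.05 edgeR left 11 members lower and 0 higher, where 2.79% of genes were lower and 1.55% higher. The log2 effect was negative for 36 of the 38 members with the score, with a median of -1.32 against -2.82 without it. Dusp6 turned from positive to negative (-0.32), and Nr4a3 (1.88) and Ptgs2 (0.11) turned from negative to positive. KO and score go together, with scores of 2.48 to 5.24 in KO and 5.08 to 8.33 in control libraries, so the 2 terms are poorly separated. Where the scores met, in Ctrl replicate 2 at 5.08 and KO replicate 1 of the WT set at 5.24, the members summed to 15576 and 3873 CPM. The summed fibroblast level did not meet there, at 1175 and 679 CPM in the same order. Ctrl replicate 2 also had the highest ratio of member to fibroblast CPM of all libraries, at 13.3. The part of the stromal level in this gap was not tested. These libraries belong to different sets and were picked after their values were seen.

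**Figure D5:**
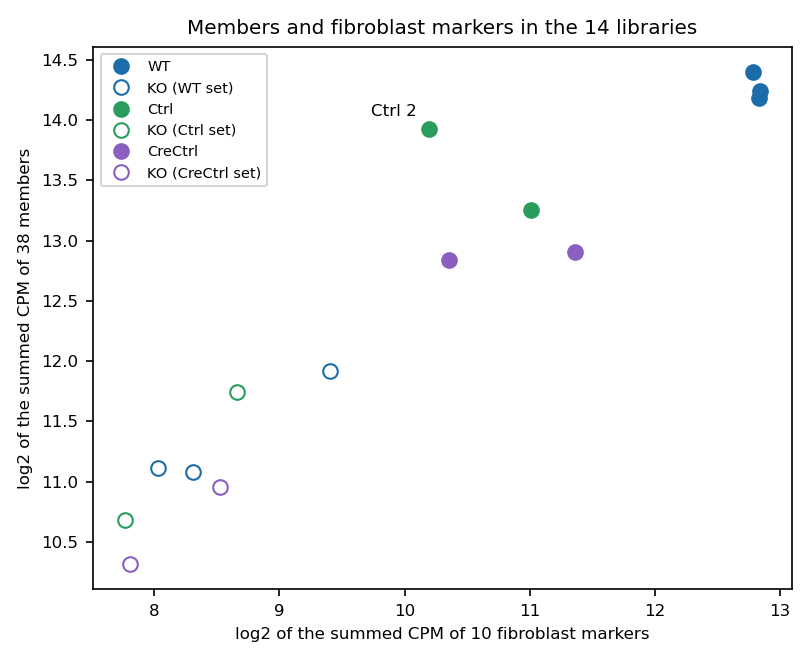
Summed level of the 38 members against that of 10 fibroblast markers, both as log2 of CPM, 1 point for each library. KO libraries (open) lie low on both axes and WT libraries high on both, and Ctrl 2 stands above the other controls with a similar fibroblast level.

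Other cell types also moved with the KO. Of 10 endothelial markers 8, 0 and 8 were called lower in KO vs. WT, vs. Ctrl and vs. CreCtrl, and their sum was 292 to 559 CPM in WT against 70.3 to 162 in KO, 121 to 141 in Ctrl against 35.6 to 56.3, and 182 to 319 in CreCtrl against 51.5 to 58.7. Of 11 myeloid markers 10, 0 and 9 were called lower, with sums of 1845 to 3057 CPM in WT against 829 to 1023 in KO, 1002 to 1552 in Ctrl against 887 to 2830, and 954 to 1309 in CreCtrl against 784 to 789. The 2830 CPM belong to KO replicate 2 of the Ctrl set. Of the 35 members with more than 3 counts in KO replicate 1 of that set, 34 were higher in replicate 2, with a median ratio of 3.92. The share of all genes higher there was not computed. Marker sums of fibroblasts (404 against 218 CPM), endothelial cells (56.3 against 35.6) and erythrocytes (215 against 80.7) were also higher in replicate 2. So were those of pericytes and smooth muscle (350 against 280), Schwann cells (890 against 731) and the RPE (71412 against 69092). Those of rods (1636 against 1704) and mast cells (0 against 0.0652) were lower. Of 7 pericyte and smooth muscle markers 4, 0 and 3 were called lower, and of 5 erythrocyte genes 5, 0 and 2. The pericyte and smooth muscle sum was 1948 to 2072 CPM in WT against 345 to 437 in KO and 453 to 797 CPM in the other controls against 280 to 350 in their KO, and the erythrocyte sum was 109 to 750 CPM in the controls against 27.6 to 215 in KO. The 8 rod markers were called lower in KO vs. CreCtrl alone, and the rod sum spanned 26.7 to 4332 CPM over all libraries with no common direction. Of 5 Schwann cell genes 1 was called lower and 1 higher against WT, 0 against Ctrl and 1 lower against CreCtrl, with sums of 262 to 649 CPM in controls and 551 to 890 in KO. Of 5 mast cell genes at most 1 had enough counts to be tested, with 0 called, and their sum was 25.2, 53.8 and 0.0685 CPM in WT and at most 6.16 CPM elsewhere. The RPE marker sum ran the other way in each set, though of the 10 markers 8 were called higher against WT, 0 against Ctrl, and 1 higher and 1 lower against CreCtrl. The sum was 14772 to 22218 CPM in WT against 70851 to 79405 in KO and 44939 to 46213 in Ctrl against 69092 to 71412. In the CreCtrl set it was 48271 to 55644 CPM in controls against 69019 to 74909 in KO. The part of any of these cell types in the fall of the members was not tested.

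Genes upstream of the members had smaller median changes than the members. Of 26 MAP kinase, serum response factor and CREB pathway genes, 8 were called lower and 1 higher against WT, 0 against Ctrl, and 2 lower and 1 higher against CreCtrl, with median log2 fold changes of -0.34, -0.15 and -0.06. The largest changes in KO vs. WT were in Elk3 (-1.73), an ETS partner of serum response factor, Map2k1 (1.31), which encodes the kinase MEK1, and Mrtfb (-1.07) and Mrtfa (-1.04), actin-sensing coactivators of serum response factor. The 26 genes summed to 1533 to 1640 CPM in WT and 1534 to 1659 in KO, and to 1676 to 1896 in Ctrl and 1578 to 1781 in KO, which overlapped. In the CreCtrl set they summed to 1523 to 1542 CPM in controls and 1687 to 1709.6 in KO, which did not overlap. Of 14 other feedback regulators of ERK, 4 were called lower and 4 higher against WT, 0 against Ctrl, and 2 lower and 2 higher against CreCtrl. Dusp4 (2.89), Dusp10 (1.74) and Spry2 (1.33) rose beside Dusp6 in KO vs. WT, and Dusp8 fell (-1.61).

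Further early response genes outside the 38, also chosen with earlier results of these data known, went with the members. Of 43 such genes, 30 of 42 tested were called lower and 3 higher against WT, 0 of 41 against Ctrl and 25 of 42 lower against CreCtrl, with medians of -2.01, -1.52 and -1.61 on the log2 scale. The largest changes in KO vs. WT were in Inhba (-6.66), an activin subunit, Ccn2 (-4.86), a matricellular protein, and Cxcl2 (-4.40), a neutrophil chemokine. Several of these are also expressed by stromal and myeloid cells, whose part here was not tested. The median of the fibroblast markers was negative in each set, as given above. That of the myeloid markers was -3.69, 0.25 and -2.79 on the log2 scale against WT, Ctrl and CreCtrl. Of 14 heat shock genes, 6 were called lower and 5 higher against WT, 0 against Ctrl, and 1 lower and 1 higher against CreCtrl, with medians of -0.04, -0.20 and 0.03. Hspb1 fell (-2.67), as did Hspa1a (-1.65) and Hsph1 (-1.58), whereas Hsp90aa1 rose (2.28), all in KO vs. WT. The heat shock sum was 2331 to 2832 CPM in WT against 3888 to 4549 in KO, 1653 to 3007 in Ctrl against 1644 to 2273, and 2371 to 3100.0 in CreCtrl against 3900.3 to 4371. It was higher in every KO library than in the controls of the WT and CreCtrl sets, and overlapped in the Ctrl set.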

How the data were processed

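RPE RNA of 14 mice was sequenced as stranded poly(A) libraries with paired-end reads. The authors deposited counts of reads per Ensembl gene, not normalized, as 1 table. Per the labels, the processing notes name bcl2fastq 2.19, STAR 2.5.2, Cufflinks 2.1.1, HTSeq 0.11.2 and GRCm38. The counting tool, its strand setting and the annotation release are not given in the sources used here. GENCODE M21 gave names and positions for 42329 of 42687 genes. Groups came from the sample titles and genotypes, and the set of each KO mouse from the style of its title.

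KO and control mice of a set were compared by edgeR's quasi-likelihood test (TMM, filterByExpr, Benjamini-Hochberg over all genes), called at an adjusted p under 0.05 and a fold change above 1.5. The 14 libraries were also fitted together with set, and with set and the mean log2 CPM of 10 fibroblast markers (prior count 2). KO effects and KO groups were compared between sets in a fit of 6 groups. Alternatives were RLE or library size scaling, other filters, DESeq2, all 14 libraries as 6 groups, a replicate block, and leaving out each library or set. The main edgeR fits of each set and of the 14 libraries with set were tested on simulated data first, and the other fits were not. The members and lists were chosen with earlier results of these data known. All members were to be named, those called in 2 or more sets or called higher with every library, and up to 4 of each pathway list by the largest absolute log2 fold change in KO vs. WT. A gene of these lists is not reported here. Ptgs2, Arc, Nr4a3 and Fosl1 were given in full after their values were seen. Total counts of 9828293 to 32384166 limit low genes, with 3 counts as the floor. The tests ran in edgeR 4.0.16 and DESeq2 1.42.0 under R 4.3.3, and tables and figures were made in Python 3.11.15 with matplotlib 3.10.9.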

Additional observations from a re-analysis of the deposited data

Results flagged for a closer look

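Fosl1 was noted because its KO effect differed between 2 sets by a test of the difference itself. The log2 fold change of KO against control was higher by 9.40 in the WT set than in the Ctrl set (edgeR adjusted p = 0.0422 in a fit of all 14 libraries as 6 groups). The fitted value depends on the prior count, because the KO mice of the Ctrl set held 0 and 3 counts. The difference comes from the Ctrl mice, at 7.70 and 130.4 CPM, while all other libraries lay between 0 and 1.96 CPM. The difference was not called with RLE scaling (edgeR adjusted p = 0.0543) or with library size alone (0.0605), and it was called when genes with as little as 1 count were kept. With library size alone Ier5 was called instead, with a difference of -1.09 on the log2 scale (edgeR adjusted p = 0.0497). An outlier test of the KO libraries flagged none for any of the 37 members examined, where chance alone gives about 1 in 20. In CPM, however, Arc was well above the next KO library (3.61) in KO replicate 2 of the WT set (15.7).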

How the results depend on the processing

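The counts of members called in KO vs. WT, in KO vs. CreCtrl and over the 3 sets stayed within 1.5 times of the reported ones under every alternative run, except with the fibroblast score, when 0 were called over the 3 sets. KO vs. Ctrl depended on the processing. Against 0 members called, 36 were called with no filter beyond 1 count, 19 with DESeq2, 23 with all 14 libraries as 6 groups and 5 with the replicate block, and 0 to 9 when 1 library was left out, the 9 without Ctrl replicate 1. With the fibroblast score Nr4a3 (1.88), Dusp6 (-0.32) and Ptgs2 (0.11) changed direction, and Fosl1, not called in KO vs. WT (-0.18), was at 0.24 without WT replicate 2, 0.22 without WT replicate 3 and 0.50 without KO replicate 3, in a range that began at -0.76 (without WT replicate 1). No other member changed direction in KO against control under any alternative run. Same-numbered libraries deviated together with correlations of -0.018, 0.073 and 0.185 among WT and KO, -0.0059 among Ctrl and KO and 0.132 among CreCtrl and KO libraries, so the numbers were not taken as pairs. The block gave 35, 5 and 35 members in KO vs. WT, vs. Ctrl and vs. CreCtrl and 37 over the 3 sets, with Ptgs2 called and Zfp36l1 not in KO vs. CreCtrl. For KO effects between sets, RLE scaling called 0 for WT set minus Ctrl set, library size scaling called Ier5 in place of Fosl1, and the filter of 1 count called 10, 2 and 4 for WT set minus Ctrl set, WT set minus CreCtrl set and Ctrl set minus CreCtrl set. For the KO groups between sets that filter called 11, 29 and 17 in the same order. Library size scaling raised the mean log2 CPM of 37 members to 8.04, 7.91 and 7.92 in WT and to 6.53 and 6.66 in CreCtrl, from 7.81, 7.67, 7.68, 6.45 and 6.50, and moved the median of all genes to -0.32, -0.11 and -0.24 in KO vs. WT, vs. Ctrl and vs. CreCtrl, while 35, 0 and 35 members were called. With all 14 libraries as 6 groups 25 members were called in KO vs. CreCtrl. Leaving out the whole WT set left 29 over the 3 sets. The causes of these changes were not tested. Groups of 2 mice and the floor of 3 counts limit what can be seen for Fosl1, Arc and Egr3.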
